A study of Mus musculus with 22 samples.

Results

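The FOXO genes of the mouse, Foxo1, Foxo3, Foxo4 and Foxo6, were followed together with Foxo6os, a transcript that starts beside Foxo6, in RNA-seq libraries of striatum and white adipose tissue (WAT). The members were taken by gene symbol. Foxo6 and Foxo6os were chosen by their measured rise from control to hormone-treated WAT, the largest among these genes, and the other FOXO genes were added as their family. They are 5 of 55327 rows of the striatum table and 5 of 47628 rows of the WAT table. A mean normalised count above 10 was required for testing. In striatum 4 members passed and Foxo6os did not, and in WAT 5 passed, Foxo6 and Foxo6os only through the hormone-treated groups. The changes of Foxo6 and Foxo6os in WAT are therefore given as a description with no test.

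The study collected transcriptome responses to thyroid hormone (TH) in mouse tissues. All 22 libraries are labelled as male, wild-type C57BL/6J mice aged 8 weeks. The control libraries are labelled hypothyroid after 2 weeks of propylthiouracil (PTU), a drug that blocks thyroid hormone synthesis. The hormone-treated libraries are labelled by TH and a time alone, 12 or 24 h in striatum and 6 or 24 h in WAT, and the study's own overview names PTU treatment for its WAT dataset and leaves that entry empty for the striatal one. The striatum control group holds 2 libraries, named replicates 3 and 6, and each of the other groups holds 4. The labels do not say that every library is a separate animal, so the p-values measure the spread between libraries.

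The striatum libraries held 8.04 to 10.1 M counts and the WAT libraries 17.3 to 26.9 M. In striatum 6 of 10 libraries, control replicate 6, 12 h replicate 1 and all 24 h libraries, had 22070 to 33693 normalised counts of Xist, the RNA of the inactive X chromosome of female cells, against at most 17.8 in the others. This goes against the male label, and at 24 h it cannot be told apart from the group. The 24 h replicate 2 also stood apart from the other striatum libraries, with 2606 summed normalised counts of 10 markers of striatal projection neurons where the others had 16875 to 46943. In WAT, all 8 white adipocyte markers were above 10 in every group, with sums of 392621 to 703381. The sum of 8 skeletal muscle markers ran from 946 to 526447 between WAT libraries.

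FOXO proteins are forkhead transcription factors that act in the nucleus when insulin and growth factor signals are low. When these signals rise, AKT and SGK kinases phosphorylate FOXO1, FOXO3 and FOXO4, which are then bound by 14-3-3 proteins and kept in the cytoplasm. In adipose tissue, FOXO1 is known as a regulator of adipocyte differentiation and of lipid breakdown. Foxo6 is known chiefly as a brain-expressed member of the family.

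In the GENCODE annotation of GRCm38, Foxo1 lies on chr3:52268336-52353221 on the plus strand, Foxo3 on chr10:42181841-42276755 on the minus strand and Foxo4 on chrX:101254528-101260873 on the plus strand. Foxo6 lies on chr4:120267079-120287349 on the minus strand, and Foxo6os on chr4:120291350-120303892 on the plus strand. The first bases of Foxo6 and Foxo6os are 4001 bases apart, the pair is transcribed away from each other, and no annotated gene overlaps either. Foxo1 overlaps Gm20402 and Gm38034. Gm20402 had at most 0.989 and Gm38034 at most 3.18 normalised counts in any library. How reads in overlapping genes were treated is not given, so these values do not show whether Foxo1 reads were lost.

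The coding stretch in which the other FOXO genes are most like Foxo6 is shown because it bears on whether their reads can be told apart. It lies in the part that encodes the forkhead domain, is 60 bases long and sits in a single exon of each gene. Capitals mark the bases that differ from Foxo6, with 8 in Foxo1, 5 in Foxo3 and 7 in Foxo4.
Foxo6, chr4:120286857-120286916, minus strand: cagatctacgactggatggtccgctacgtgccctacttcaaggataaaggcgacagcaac
Foxo1, chr3:52269345-52269404, plus strand: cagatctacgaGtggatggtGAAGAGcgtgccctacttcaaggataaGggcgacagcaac
Foxo3, chr10:42274834-42274893, minus strand: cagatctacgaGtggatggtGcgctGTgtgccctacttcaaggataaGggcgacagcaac
Foxo4, chrX:101255196-101255255, plus strand: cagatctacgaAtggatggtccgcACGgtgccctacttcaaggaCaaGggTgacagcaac
Over whole transcripts, the longest run of bases that Foxo6 shares is 21 with Foxo1, 20 with Foxo3, 20 with Foxo4 and 11 with Foxo6os. No 50-base window of Foxo6, Foxo6os, Foxo3 or Foxo4 occurs in the transcripts of another gene, while 6.80% of such windows of Foxo1 do.

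Promoters are shown for the members that were raised in WAT and have an entry in the RefSeq table of GRCm38.p6, which held 3 of the 5 members. Each line gives the 250 bases before the RefSeq start, 5′ to 3′ and in lower case throughout, since none of the searched motifs was found.
Foxo6os, chr4:120290883-120291132, plus strand: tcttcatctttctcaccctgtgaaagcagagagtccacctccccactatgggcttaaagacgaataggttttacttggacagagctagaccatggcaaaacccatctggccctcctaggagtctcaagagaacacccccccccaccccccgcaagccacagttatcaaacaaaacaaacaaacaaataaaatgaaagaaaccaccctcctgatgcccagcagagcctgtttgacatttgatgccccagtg
Foxo1, chr3:52268087-52268336, plus strand: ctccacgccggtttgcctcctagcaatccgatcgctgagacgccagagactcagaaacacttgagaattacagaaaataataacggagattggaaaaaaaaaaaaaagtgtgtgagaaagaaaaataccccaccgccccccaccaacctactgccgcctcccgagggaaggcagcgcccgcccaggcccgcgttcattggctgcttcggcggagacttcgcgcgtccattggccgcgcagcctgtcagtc
The motifs were searched on both strands from 250 bases before to 50 after the start. They were AGGTCA, the hexamer of thyroid hormone receptor elements, its direct repeat with 4 bases of any kind between the copies, which contains the hexamer, and GTAAACA, a forkhead motif. Neither window held any of them, and over all 32851 promoters the shares with a match were 16.3%, 0.0152% and 3.65%. The Foxo6os window had a GC content of 50% and 2 CpG dinucleotides, and the Foxo1 window 61.3% and 31, against medians of 52.7% and 7 over the table.

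In WAT, Foxo1 rose after TH at both times, Foxo3 and Foxo4 did not pass the test at either, and Foxo6 and Foxo6os went from near or at 0 counts to levels per length that overlapped those of Foxo3, Foxo6 at both times and Foxo6os at 24 h. Normalised counts, used throughout for levels of 1 gene, are counts scaled to the mean effective library size of the tissue. Differences were tested with the quasi-likelihood test of edgeR over all 17928 rows that passed, with Benjamini-Hochberg adjustment and a threshold of 0.05.

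Foxo1 had 1259, 1340, 1315 and 1257 normalised counts in the control libraries, a mean of 1293 ± 41.2 (SD, n = 4). It had 2102, 2363, 2118 and 2359 at 6 h, a mean of 2235 ± 145. It had 1678, 1973, 1779 and 1969 at 24 h, a mean of 1850 ± 146. Every hormone-treated library lay above every control library, and the 6 h libraries lay above the 24 h libraries. Such separations were found for 13.9% of rows between 6 h and control, 19.3% between 24 h and control and 21.8% between the times. The log2 change was 0.79 ± 0.08 (SE) at 6 h (edgeR adjusted p = 0.000105) and 0.52 ± 0.08 at 24 h (edgeR adjusted p = 0.00111). Foxo1 was thus the only one of the 3 tested members called at 6 h, where 7.23% of all rows were called, and at 24 h, where 17.1% were. Both calls held in all 20 alternatives, with adjusted p up to 0.000988 at 6 h and 0.00802 at 24 h. Between 24 h and 6 h Foxo1 differed by -0.27 ± 0.08, which missed the threshold with an edgeR adjusted p of 0.0559, where 7.41% of rows were called. That difference passed with DESeq2 (adjusted p = 0.0136) and in edgeR when control replicate 1 or control replicate 4 was left out.

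**Figure D1:**
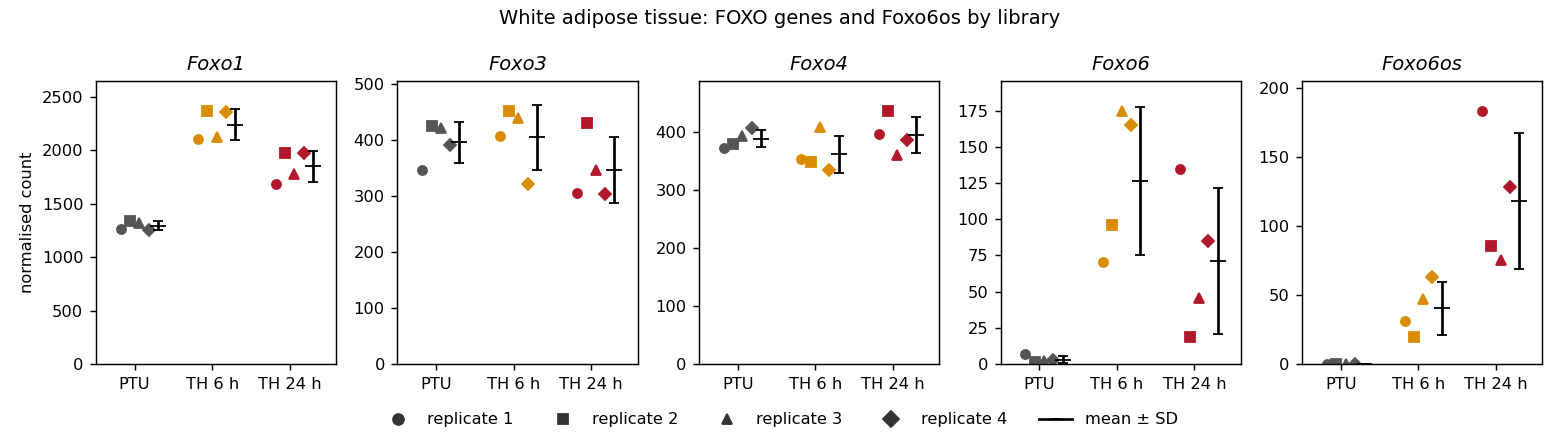
Normalised counts of the 5 genes in the 12 WAT libraries, with 1 panel per gene, each on its own linear axis from 0, colours for the PTU, TH 6 h and TH 24 h groups, symbols for replicates and bars for the mean ± SD. The Foxo1 control libraries sit between 1257 and 1340 and all hormone-treated ones at 1678 or more, while the groups of Foxo3 and Foxo4 overlap and the control libraries of Foxo6 and Foxo6os lie near or at 0.

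Foxo3, the member best known for stress resistance and long life, had 347, 425, 421 and 391 normalised counts in control WAT, 407, 451, 439 and 322 at 6 h, and 306, 431, 346 and 303 at 24 h. All 3 groups overlapped. The log2 change was 0.03 at 6 h, with a 95% interval of -0.27 to 0.33 (edgeR adjusted p = 0.908), and its sign turned to between -0.01 and -0.03 without control replicate 1, 6 h replicate 2 or 6 h replicate 3. It was -0.19 at 24 h, with an interval of -0.49 to 0.11 (edgeR adjusted p = 0.363).

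Foxo4, the X-linked member, had 374, 381, 394 and 407 normalised counts in control WAT, 355, 348, 409 and 336 at 6 h, and 396, 436, 361 and 387 at 24 h. These groups overlapped as well. The log2 change was -0.10 at 6 h, with a 95% interval of -0.30 to 0.09 (edgeR adjusted p = 0.498). It was 0.02 at 24 h, with an interval of -0.17 to 0.22 (edgeR adjusted p = 0.881), and -0.02 without 24 h replicate 2. At 6 h the intervals of Foxo3 and Foxo4 thus ended below the log2 change of 0.79 estimated for Foxo1, a difference between genes that was not tested.

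Foxo6 had 7, 1, 2 and 2 raw counts in the control WAT libraries, 63, 119, 163 and 201 at 6 h, and 140, 19, 43 and 77 at 24 h. In normalised counts the means were 3.05 ± 2.51, 126 ± 51.3 and 71.1 ± 50.7 (SD, n = 4 each). The lowest hormone-treated library, 24 h replicate 2 with 18.4 normalised counts, lay above the highest control library with 6.72. Of all rows, 13.9% separated from control at 6 h and 19.3% at 24 h. The ratio of summed counts to control was 40.3 at 6 h, with an exact 95% interval of 22.9 to 78.5, and 22.6 at 24 h, with an interval of 12.7 to 44.2. These intervals cover counting error only, because counts were summed over the 4 libraries of a group. They leave out the spread between libraries. The reads carry no molecular identifiers, so copies of 1 molecule may be counted apart. The intervals rest on 12 control counts in all, 7 of which came from control replicate 1. The fitted log2 difference was 5.28 at 6 h and 4.45 at 24 h, and without control replicate 1 these became 6.04 and 5.20. Foxo6 spread more between libraries than Foxo1. Its highest 24 h library held 7.33 times the level of its lowest, and for Foxo1 this ratio was 1.18. The 6 h and 24 h groups of Foxo6 overlapped.

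Foxo6os, annotated as an antisense RNA without a coding sequence, had 0 counts in every control WAT library. It had 28, 24, 44 and 77 counts at 6 h and 190, 88, 71 and 116 at 24 h. A count of 0 allows up to 3 counts per library, here 3.22 normalised counts on average. Against this floor the mean of 40.2 ± 19.1 normalised counts at 6 h was at least 12.5-fold higher, and the mean of 118 ± 49.2 at 24 h was at least 36.7-fold higher. These bounds hold for the measured means and leave out the spread between libraries, the lowest of which had 19.3 at 6 h. The 24 h libraries, from 75.4 normalised counts, all lay above the 6 h libraries, which reached 63.2, and 21.8% of all rows separated between these times. The counts of Foxo6os per count of Foxo6 were 0.444, 0.202, 0.270 and 0.383 in the 6 h libraries and 1.36, 4.63, 1.65 and 1.51 in the 24 h libraries. Foxo6 was thus the more counted of the pair in each 6 h library, and Foxo6os in each 24 h library. At 24 h, replicate 1 had the most of both, with 135 normalised counts of Foxo6 and 183 of Foxo6os.

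Compared per kb of exon and per M counts, which allows levels of different genes to be set side by side, the order in control WAT was Foxo1 at 6.95 (range 6.75 to 7.20), Foxo4 at 5.20 (4.99 to 5.44), Foxo3 at 2.44 (2.13 to 2.61), Foxo6 at 0.0542 (0.0213 to 0.120) and Foxo6os at 0. No neighbours in this order overlapped. At 6 h Foxo1 stood at 12.0 and Foxo4 at 4.84, Foxo3 at 2.49 (1.98 to 2.78) and Foxo6 at 2.25 (1.25 to 3.11) overlapped, and Foxo6os followed at 0.818 (0.392 to 1.29), which overlapped Foxo6. At 24 h Foxo1 at 9.94 and Foxo4 at 5.28 again led, and Foxo6os at 2.40, Foxo3 at 2.13 and Foxo6 at 1.27 all overlapped. As a share of the FOXO transcripts per length, Foxo6 made up 0.378% in control WAT, 10.3% at 6 h and 6.81% at 24 h. The total over the 4 FOXO genes was 14.6 ± 0.436, 21.6 ± 1.25 and 18.6 ± 0.927 per kb per M in the same order.

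**Figure D2:**
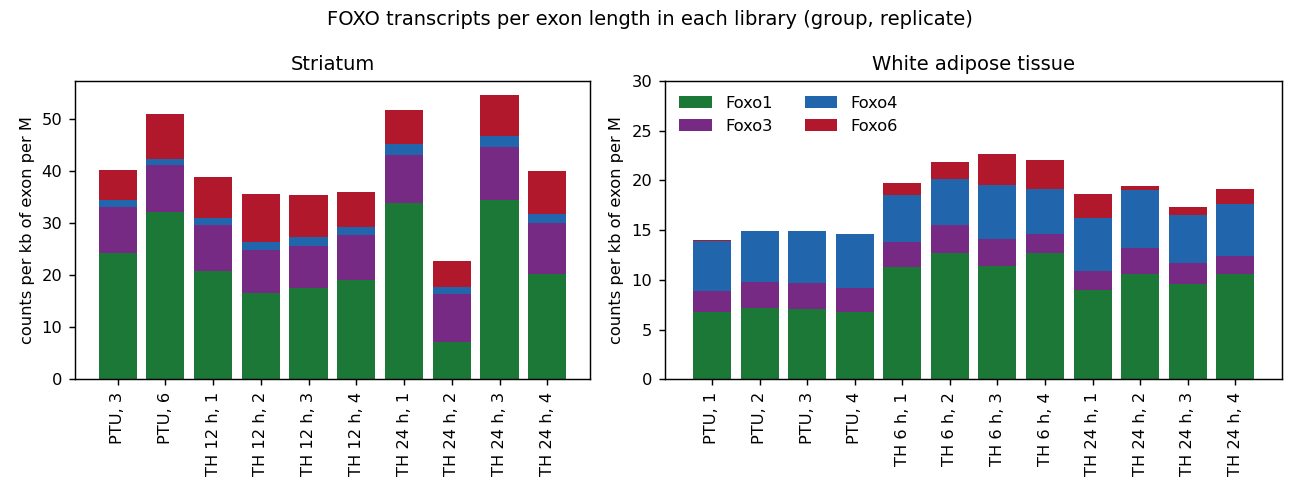
Level of the 4 FOXO genes per kb of exon per M counts in each library, stacked by gene, for striatum on the left and WAT on the right, with the group and replicate under each bar and a separate axis per tissue. The WAT bars average 14.6 in control, 21.6 at 6 h and 18.6 at 24 h, with Foxo6 hardly visible in control, and in striatum the bar of 24 h replicate 2 is the shortest.

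Sums of cell type markers differed between the WAT groups or libraries. The sum of 6 brown adipocyte markers, of which 5 were above 10 in each group, was 929 to 2366 normalised counts in control, 3546 to 7773 at 6 h and 5671 to 18938 at 24 h. Ucp1, the uncoupling protein of thermogenic adipocytes, had 4.80 to 268 normalised counts in control, 1641 to 3941 at 6 h and 2877 to 12352 at 24 h. The white adipocyte sum was 537713 to 703381, 507548 to 653237 and 392621 to 492625 in the same order. The sum of 7 stratified epithelium markers was 372 to 737 in control, 247 to 4062 at 6 h, with the highest values in replicates 1 and 3, and 206 to 247 at 24 h, where 3 of the 7 were above 10. The leukocyte sum was 3726 to 6574, 4170 to 7740 and 5676 to 7221. The part of these shifts in the changes of Foxo1, Foxo6 and Foxo6os was not tested, and in bulk tissue fewer cells of a type and less RNA per cell cannot be told apart. With the muscle sum as a covariate the Foxo1 change was 0.76 at 6 h and 0.54 at 24 h, and with the epithelium sum it was 0.83 and 0.46, all still called.

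Of the 10 nearest genes around Foxo6 with a row in the WAT table, 4 could be tested. Ctps, which encodes CTP synthase and lies 252.5 kb away from Foxo6, was called higher at 24 h, from 223 ± 31.6 to 397 ± 186 normalised counts (log2 0.83 ± 0.24, edgeR adjusted p = 0.0324), and the call held in 13 of 20 alternatives. It was lost, among others, without control replicate 2, 3 or 4. Over all rows 7.45% were called higher at 24 h. Scmh1, the nearest of the 4 at 117.9 kb, had log2 changes of -0.08 at 6 h and -0.24 at 24 h, neither called. Hivep3, at 129.0 kb on the other side, had 0.58 and 0.68, not called by edgeR (adjusted p = 0.0766 at 24 h). DESeq2 called Hivep3 at 24 h, as it did Ctps, where it called 1641 of 17928 rows higher. Foxj3, another forkhead gene, had 0.21 and 0.02 without a call.

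The rows most like Foxo6 over the 12 WAT libraries were ranked by the root mean square difference of centred log2 CPM over 17927 rows. Among the 5 nearest were Trpv3 (0.786), B430219N15Rik (0.856), Gm17276 (0.867) and Lpin3 (0.933). Trpv3 encodes a heat-sensitive ion channel, and it averaged 4.32, 66.2 and 46.1 normalised counts in control, 6 h and 24 h. Lpin3, a phosphatidate phosphatase, averaged 34.5, 388 and 339. Foxo6os ranked 21 with a difference of 1.26, while Foxo1 ranked 534, Foxo4 9867 and Foxo3 11835. Foxo6 and Foxo6os were both chosen by their rise in these libraries, so their likeness is a description and no support. The difference is not scaled, so the rank also depends on the size of a row's change. Trpv3 and Gm17276, like Foxo6, passed the filter only through the hormone-treated groups.

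The kinases and receptors upstream of FOXO proteins were all measured in WAT, 17 of 17. At 6 h 2 were called higher and 1 lower, at 24 h 1 higher and 3 lower, and between 24 h and 6 h 3 lower. Over all rows 4.18% were called higher and 3.05% lower at 6 h, 7.45% and 9.62% at 24 h, and 3.07% and 4.35% between the times. Akt1, a kinase that phosphorylates FOXO proteins, rose from 1193 ± 164 normalised counts to 1755 ± 200 at 6 h (log2 0.56 ± 0.11, edgeR adjusted p = 0.0132) and 2147 ± 178 at 24 h (log2 0.85 ± 0.12, edgeR adjusted p = 0.000474). Pik3cb, a catalytic subunit of phosphoinositide 3-kinase, fell from 1264 ± 221 to 727 ± 59.1 and 521 ± 81.3 (edgeR adjusted p = 0.00487 and 0.000110). The Pik3cb calls and the 24 h call of Akt1 held in all 20 alternatives, and the 6 h call of Akt1 in 19. Insr, the insulin receptor and itself a known FOXO target, had 1685 ± 80.3, 2057 ± 83.3 and 1435 ± 117. Its difference from 6 h to 24 h was -0.52 ± 0.08 (edgeR adjusted p = 0.00269), held in 19 of 20 alternatives, while its call at 6 h (edgeR adjusted p = 0.0428) held in 8. Akt2 and Sgk3 were called lower at 24 h, with log2 changes of -0.42 and -0.49, in 10 and 13 of 20 alternatives. Against 6 h, they were called lower with -0.70 and -0.59 in 19 and 12. The median of the list was 0.11 at 6 h and -0.16 at 24 h, against -0.03 and -0.00199 over all rows tested.

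Among 24 enzymes and 14-3-3 proteins that modify or bind FOXO proteins, 4 were called at 6 h, all higher, 2 were called higher and 2 lower at 24 h, and 1 was called lower between 24 h and 6 h. Shares over all rows were 4.18% higher at 6 h, 7.45% higher and 9.62% lower at 24 h, and 4.35% lower between the times. Setd7, a lysine methyltransferase, rose from 1055 ± 162 normalised counts to 1948 ± 136 at 6 h (log2 0.89 ± 0.11, edgeR adjusted p = 0.000526) and 1679 ± 132 at 24 h (log2 0.67 ± 0.11, edgeR adjusted p = 0.00146). Ywhab, a 14-3-3 protein, fell from 14810.5 ± 1652 to 7339 ± 646 at 24 h (log2 -1.01 ± 0.11, edgeR adjusted p = 0.000128), and was lower at 24 h than at 6 h, where it had 14209 ± 1189. These Setd7 and Ywhab calls held in all 20 alternatives. Ywhag, another 14-3-3 protein, went from 8635 ± 1699 to 13190 ± 1078 at 6 h (edgeR adjusted p = 0.0285), a call lost without control replicate 2, 6 h replicate 3 or 6 h replicate 4. The other calls were weaker. The acetyltransferase Ep300 at 6 h, and the ubiquitin ligase Mdm2 and the kinase Nlk at 24 h, held in 11, 13 and 11 of 20 alternatives. The medians were 0.05 at 6 h and 0.04 at 24 h, against -0.03 and -0.00199 over all rows tested.

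Genes known as FOXO targets moved in both directions. Of 24 listed, 22 could be tested, of which 2 were called higher and 1 lower at 6 h, 5 higher and 4 lower at 24 h, and 2 higher and 2 lower between 24 h and 6 h. Shares over all rows were 4.18% higher and 3.05% lower at 6 h, 7.45% and 9.62% at 24 h, and 3.07% and 4.35% between the times. Pdk4, which restrains glucose oxidation, rose from 1529 ± 731 to 10449 ± 8300 normalised counts at 24 h (log2 2.77 ± 0.65, edgeR adjusted p = 0.0120). Bcl6, a transcriptional repressor, rose from 508 ± 151 to 1884 ± 914 at 24 h (log2 1.89 ± 0.37, edgeR adjusted p = 0.00509). Cdkn1a, the cell cycle inhibitor p21, rose from 475 ± 79.5 to 1643 ± 498 at 24 h (log2 1.79 ± 0.20, edgeR adjusted p = 0.000110), and stood at 421 ± 60.7 at 6 h. Sod2, the mitochondrial superoxide dismutase, rose from 3041 ± 278 to 4793 ± 581 (edgeR adjusted p = 0.00638). Falling genes included Bnip3, a mitophagy receptor, from 5584 ± 1503 to 2447 ± 528 (edgeR adjusted p = 0.00135), and Cat, the peroxisomal catalase, from 37378 ± 16488 to 17129 ± 1244 (edgeR adjusted p = 0.00545). These 6 calls at 24 h held in all 20 alternatives. The lipase Pnpla2, the sestrin Sesn3 and the cyclin Ccng2 were also called at 24 h, in 5, 10 and 13 of 20. The 6 h calls of Bcl6, Insr and Ccng2 held in 9, 8 and 13. The medians of the list were -0.18 at 6 h and 0.06 at 24 h, against -0.03 and -0.00199 over all rows tested.

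Of 40 other forkhead genes, 15 could be tested in WAT. At 24 h 3 were called, all higher, where 7.45% of all rows were called higher. Foxk2 rose from 592 ± 85.2 to 908 ± 97.1 normalised counts (log2 0.62 ± 0.11, edgeR adjusted p = 0.00264) in all 20 alternatives. Foxp3, the factor of regulatory T cells, went from 81.0 ± 31.7 to 157 ± 28.2 (edgeR adjusted p = 0.0251), held in 12, and Foxp4 was called in 5. Foxn3 was called higher at 6 h (edgeR adjusted p = 0.0365), where 4.18% of all rows were called higher, and held in 10. Its log2 change was 1.10 ± 0.28, from 54.5 ± 21.4 to 116 ± 32.3 normalised counts.

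In striatum, none of the 4 tested members was called by edgeR at either time or between the times, where 0.96% of 15827 rows were called at 12 h, 0.348% at 24 h and 0.0% between 24 h and 12 h. DESeq2 called 0 as well. An unadjusted p under 0.05 was found for 1 member at 24 h, Foxo4, for 1 between the times, Foxo3, and for 0 at 12 h. Over all 15827 rows it was found for 1524 at 24 h, 2309 between the times and 3197 at 12 h.

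Foxo6 was present in every striatum library. It had 144 and 213 normalised counts in control, 197, 230, 201 and 167 at 12 h, and 165, 122, 193 and 203 at 24 h. The groups overlapped. The log2 change was 0.16 at 12 h, with a 95% interval of -0.32 to 0.63 (edgeR adjusted p = 0.719), and -0.06 at 24 h, with an interval of -0.54 to 0.41 (edgeR adjusted p = 0.9503). Its direction turned with the control library used, to -0.10 at 12 h without control replicate 3 and to 0.25 at 24 h without control replicate 6. It was also 0.05 at 24 h without 24 h replicate 2.

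Foxo6os had 2 and 0 raw counts in control striatum, 8, 2, 1 and 1 at 12 h, and 4, 6, 2 and 2 at 24 h. It was below the filter, so no change was tested. In the striatum, where Foxo6 reached 230 normalised counts, Foxo6os stayed at 7.55 or fewer.

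Foxo1 had 1969 and 2624 normalised counts in control striatum, 1695, 1344, 1430 and 1556 at 12 h, and 2762, 576, 2806 and 1643 at 24 h. The 12 h libraries all lay below the control libraries, a separation found for 36.4% of all rows tested, and the 24 h libraries spread on both sides. The log2 change at 12 h was -0.61 ± 0.45 (edgeR adjusted p = 0.472), and it was called when the 24 h libraries were left out of the fit (edgeR adjusted p = 0.0247). That fit called 1442 of 15939 rows at 12 h, against 152 of 15827 in the main fit. At 24 h the log2 change of Foxo1 was -0.24 ± 0.45 (edgeR adjusted p = 0.897), and 0.05 without 24 h replicate 2. The neuronal markers moved with it. The 12 h libraries had projection neuron sums of 16875 to 28406 against 32289 and 46943 in control, and sums of 8 cortical excitatory neuron markers of 11124 to 16402 against 5575 and 8896. The 24 h replicate 2, lowest in Foxo1, had 2606 for the first list and 25840, the highest, for the second. It had 31.4 normalised counts of Drd2 and 12586 of Slc17a7, which mark striatal neurons and cortical excitatory neurons. The part of tissue composition in the Foxo1 levels was not tested.

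**Figure D3:**
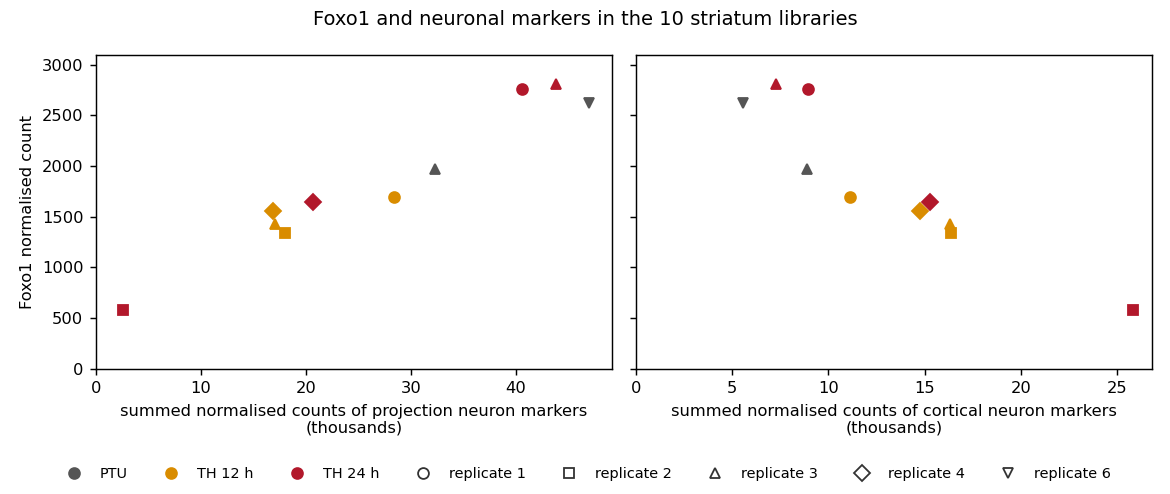
Foxo1 normalised counts in the 10 striatum libraries against the summed normalised counts, in units of 1000, of 10 projection neuron markers on the left and 8 cortical excitatory neuron markers on the right, with colours for groups and symbols for replicates. The 24 h replicate 2, with 576 Foxo1 counts, lies at the low end of the first axis and at the high end of the second.

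Foxo3 varied least between striatum libraries. It had 635 and 632 normalised counts in control, 633, 592, 570 and 614 at 12 h, and 659, 669, 726 and 697 at 24 h. The 24 h libraries lay above all others, a separation from control found for 18.2% of rows and from 12 h for 8.3%. The log2 change was 0.12 ± 0.08 at 24 h (edgeR adjusted p = 0.687) and -0.07 ± 0.08 at 12 h (edgeR adjusted p = 0.662). Between 24 h and 12 h it was 0.19 ± 0.07 (edgeR adjusted p = 0.236), so none passed the threshold.

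Foxo4 had 41.9 and 39.6 normalised counts in control striatum, 39.6, 49.9, 55.3 and 49.2 at 12 h, and 63.5, 41.5, 67.9 and 57.2 at 24 h. The groups overlapped. The log2 change was 0.25 ± 0.22 at 12 h (edgeR adjusted p = 0.557) and 0.50 ± 0.22 at 24 h (edgeR adjusted p = 0.510). Foxo4 is X-linked, all 24 h libraries were high in Xist, and the part of this in the Foxo4 level was not tested.

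**Figure D4:**
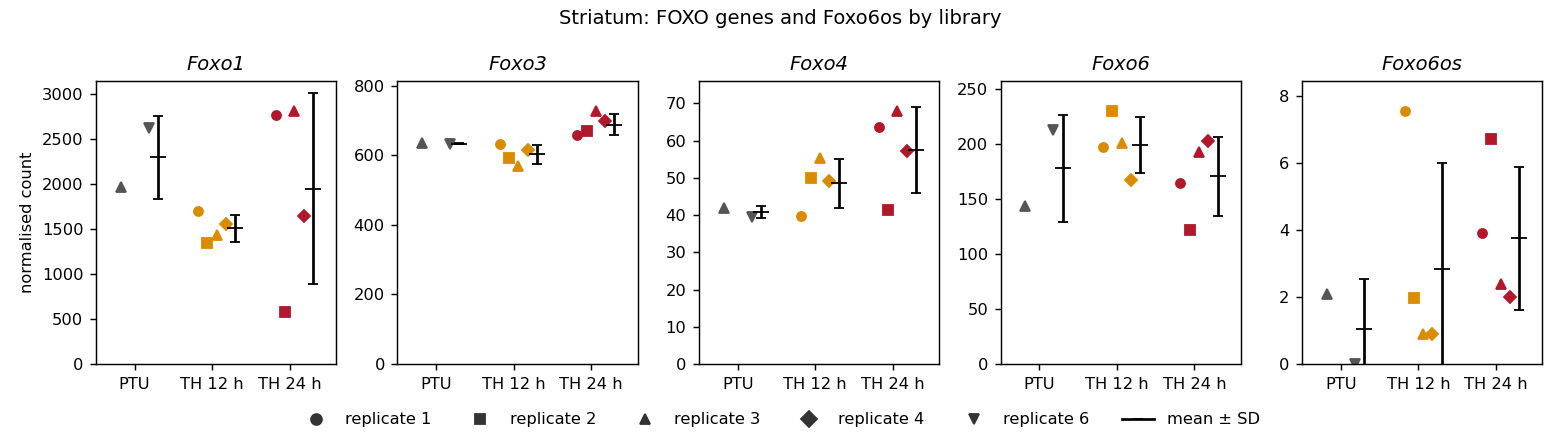
Normalised counts of the 5 genes in the 10 striatum libraries, with 1 panel per gene, each on its own linear axis from 0, colours for the PTU, TH 12 h and TH 24 h groups, symbols for replicates and bars for the mean ± SD, which end at the axis where they would fall below 0. Foxo6 stays between 122 and 230 in all libraries, Foxo6os does not exceed 7.55, and Foxo1 at 24 h runs from 576 to 2806.

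Per kb of exon per M counts, control striatum had Foxo1 at 28.2 (24.2 to 32.2), Foxo3 at 8.89 (8.87 to 8.92), Foxo6 at 7.24 (5.84 to 8.64), Foxo4 at 1.24 (1.21 to 1.28) and Foxo6os at 0.0486, with no overlap between neighbours. At 12 h Foxo3 at 8.46 and Foxo6 at 8.09 overlapped. Foxo6 made up 15.7% of the FOXO transcripts per length in control striatum, 22.2% at 12 h and 17.5% at 24 h. The order of the members thus differed between the tissues, with Foxo4 next to Foxo1 in control WAT and lowest of the FOXO genes in control striatum.

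The change from control to 24 h was set between the tissues in 1 fit over 12766 genes, in which 5.14% were called. None of Foxo1, Foxo3 and Foxo4 was called by edgeR or DESeq2. Foxo4 alone of them had an unadjusted p under 0.05, as did 2625 of the 12766 genes. The WAT change exceeded that of striatum by 0.77 ± 0.43 for Foxo1 (edgeR adjusted p = 0.325). It was below that of striatum by log2 values of -0.31 ± 0.18 for Foxo3 (edgeR adjusted p = 0.346) and -0.47 ± 0.20 for Foxo4 (edgeR adjusted p = 0.196). For Foxo6 the difference was 4.50 ± 0.78, given as a description, and it ranged from 3.98 to 5.25 when single libraries were left out, the extremes without WAT 24 h replicate 1 and without WAT control replicate 1.

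**Figure D5:**
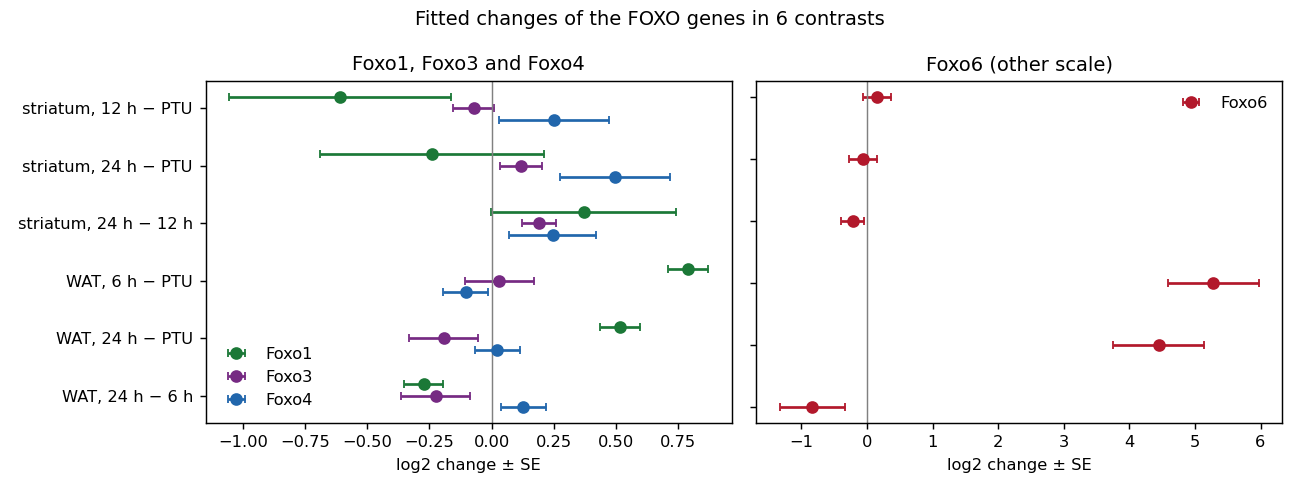
Fitted log2 changes of Foxo1, Foxo3 and Foxo4 (left) and of Foxo6 (right, on a wider scale) in 6 contrasts, with points for the estimate and bars for its SE. Foxo1 in WAT lies at 0.79 and 0.52 against control with short bars, the striatum bars of Foxo1 are the longest on the left, and Foxo6 lies at 5.28 and 4.45 in WAT and near 0 in striatum.

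The lists around the FOXO genes gave 1 call in striatum, at 12 h, where 0.96% of all rows were called. Sgk3, a kinase of the SGK group, fell from 306 ± 7.45 normalised counts in 2 control libraries to 171 ± 16.96 at 12 h (log2 -0.84 ± 0.12, edgeR adjusted p = 0.02003). The call was lost without 12 h replicate 3, in a fit that called 6 of 15799 rows. It was also lost without control replicate 3 or 6, fits that leave 1 control library and can call hardly any row. These losses are therefore not particular to Sgk3, whose direction was the same in all 15 alternatives. Sgk3 had 222 ± 22.4 at 24 h, which was not called. Of the 20 tested FOXO targets, 23 modifiers and 14-3-3 proteins, 21 other forkhead genes and 3 neighbours of Foxo6, 0 were called at any time by edgeR. At 12 h an unadjusted p under 0.05 was found for 5, 3, 5 and 1 of them in that order, and for 3197 of all 15827 rows. DESeq2 called Bcl6, Foxp4 and Hivep3 and, among the upstream genes, Irs1 beside Sgk3, where it called 802 of all rows. At 24 h an unadjusted p under 0.05 was found for 1, 1, 2 and 1, and for 1524 of all rows. DESeq2 called 0 of the listed genes at 24 h and 203 of all rows. Hivep3 went from 1053 ± 165 normalised counts in control to 1989 ± 169 at 12 h, a log2 change of 0.92 ± 0.27 that edgeR did not call (adjusted p = 0.101).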

How the data were processed

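Per the labels and the study's methods, WAT RNA came from Trizol extraction and striatal RNA from RNeasy kits, the library kit was Lexogen SENSE for total RNA, and sequencing was on an Illumina NextSeq. The values used are raw counts as deposited by the authors, in a table for each tissue with genes in rows and libraries in columns. The authors had aligned the reads to GRCm38 with Bowtie2 (2.2.6.2 in the submitters' processing notes), dropped alignments with a quality under 10 and assigned reads to genes by htseqcount. Which annotation release and strand option were used, and how reads in overlapping genes were treated, is not given in the sources used here. All 12 WAT and 10 striatum columns matched a library label.

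Rows whose symbols had been turned into dates, 14 in striatum and 15 in WAT, were left out before library sizes were computed. They held at most 0.201% and 0.0825% of a library's counts. The WAT table repeats some symbols, on 126 rows, none of them a member. It also holds 129 rows that copy another row within 2%, none of them a member. Counts were scaled by TMM in edgeR 4.0.16 (R 4.3.3), with factors of 0.957 to 1.03 in striatum and 0.917 to 1.11 in WAT. Testing was limited to rows whose normalised count averaged over 10, and used the quasi-likelihood F test, two-sided, all 3 groups of a tissue in 1 model, with Benjamini-Hochberg adjustment over all rows tested and a call at adjusted p under 0.05 without a minimum fold. The SE is the log2 change divided by the square root of F, and intervals use the degrees of freedom of that test. The difference between tissues used all 6 groups in 1 model over symbols with a single row in each table. The steps were tested on simulated data. No pair of replicates agreed within counting noise, since chi-square per degree of freedom was 3.73 to 44.7 in striatum and 10.8 to 96.8 in WAT.

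Exon lengths and coordinates come from GENCODE on GRCm38, and promoters from RefSeq on GRCm38.p6. The alternatives were DESeq2 1.42.0, its size factors in edgeR, no filter, the groups of a contrast alone, each library left out in turn, marker sums as covariates (Y-linked genes in striatum, muscle or stratified epithelium in WAT), WAT rows without copied and mitochondrial rows, and a replicate block. The members and gene lists were chosen with earlier results of these data known. Named genes were all members, up to 3 called genes with the largest rise and 3 with the largest fall per list and contrast, the 5 rows nearest to Foxo6, of which 1 is not reported here, and single markers where a library stood apart. Sod2 and Pnpla2 at 24 h, Ccng2 at 24 h, and the neighbours of Foxo6 without a call were named after their values were seen.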

Additional observations from a re-analysis of the deposited data

Results flagged for a closer look

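In striatum, the 12 h replicate 1 had 7.55 normalised counts of Foxo6os (8 raw counts), far from the other libraries of its group, whose nearest value was 1.96. It was the only one of 24 groups of 4 libraries, taken over members, that held such a library by Dixon's criterion at the 95% level, where chance gives about 1 in 20 groups. This library was also the only one of its group with high Xist.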

How the results depend on the processing

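No result reversed its direction with a call under any alternative. The number of members called stayed at 1 of 3 in WAT at 6 h and 24 h in all 20 alternatives each. It stayed at 0 for the difference between tissues in all 26, in striatum at 24 h in all 15 and between 24 h and 12 h in all 16. Calls were rare in striatum, where the main fit called 55 of 15827 rows at 24 h and 0 between the times. The counts of 0 there thus say little about the members, least of all in fits that leave 1 control library. In striatum at 12 h it became 1, Foxo1, when only the groups of the contrast were fitted, which called 1442 of 15939 rows. Between 24 h and 6 h in WAT it became 1, again Foxo1, with DESeq2, and leaving out single libraries gave 0 to 1, with 1 without control replicate 1 or control replicate 4. The causes were not tested. The counts of called list genes moved more. Each of the 12 WAT libraries moved at least 1 of these counts by more than 1.5 times when it was left out. Targets called higher ranged from 0 to 2 at 6 h, 4 to 5 at 24 h and 1 to 4 between the times in WAT, and targets called lower from 0 to 2, 2 to 6 and 0 to 4. Upstream genes ranged from 0 to 3 higher at 6 h and from 1 to 4 lower at 24 h, modifiers from 1 to 5 higher at 6 h and 1 to 5 lower at 24 h, and other forkhead genes from 1 to 3 higher at 24 h. In striatum the list counts ranged from 0 to 2 in each direction.

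Residual correlations of same-numbered WAT libraries ran from -0.466 to 0.383 over 12 pairs. They were not computed for libraries with different numbers, so they cannot show whether the numbers pair libraries. With a replicate block Foxo1 in WAT was 0.79 at 6 h, 0.51 at 24 h and -0.27 between the times, with 1, 1 and 0 members called. The block moved list counts at 6 h, with targets called higher going from 2 to 0, targets called lower from 1 to 0 and modifiers called higher from 4 to 2, and modifiers called lower at 24 h from 2 to 1. In striatum the block was fitted for 24 h against 12 h alone, with 0 called (correlations of -0.387 to 0.258 over 6 pairs). No paired analysis was possible for striatum against control because the groups share only replicate number 3.

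The limits are the 12 control counts of Foxo6 in WAT, the 2 control libraries of striatum and the uneven composition of the striatum libraries.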
